A study of Solanum lycopersicum and Solanum pennellii with 32 samples.

Results

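The 10 genes described here make, inactivate or respond to gibberellin, and were chosen by gene ID from the 34843 IDs of each deposited table. There are 3 gibberellin 20-oxidases, GA20ox1 (Solyc03g006880), GA20ox2 (Solyc06g035530) and GA20ox3 (Solyc11g072310). The 2 gibberellin 3-oxidases are GA3ox1 (Solyc06g066820) and GA3ox2 (Solyc03g119910). The 4 gibberellin 2-oxidases are GA2ox1 (Solyc05g053340), GA2ox2 (Solyc07g056670), GA2ox4 (Solyc07g061720) and GA2ox5 (Solyc07g061730). The last member is the DELLA gene (Solyc11g011260). All 10 IDs were found in both tables. The tables themselves carry no gene names. The names come with the list of members. RefSeq lists GA20ox2, GA20ox3, GA3ox2 and DELLA under the symbols 20ox-2, 20ox-3, 3OH-2 and GAI, a pairing made here. With these symbols, it places the gene on the chromosome that the ID states for 10 of 10. RefSeq also gives 3OH-2 on chromosome 3 the synonym SlGA3ox1, which GA3ox1 on chromosome 6 carries too.

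Gibberellins are plant hormones that promote growth by cell elongation and division, in roots as in shoots. The 20-oxidases carry out the late oxidations that lead to the direct precursors, and the 3-oxidases turn these precursors into active hormone. The 2-oxidases inactivate gibberellins by hydroxylation. DELLA proteins repress gibberellin responses and are degraded when the hormone is perceived, and in tomato the gene is also known as PROCERA.

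Roots were taken from seedlings of the cultivated tomato Solanum lycopersicum M82 and of the wild species Solanum pennellii LA0716, called Pennellii below. All seedlings carried a 35S:TRAP construct, a tagged ribosomal protein under the viral 35S promoter, and the labels describe total RNA, so no measurement here is of ribosome-bound RNA. Plants were 8 to 10 days old and had grown on a medium with phosphate (sufficient) or without added phosphate (limiting). Segments were either the terminal 1 cm of the root (tip) or about 2 cm midway between root-shoot junction and tip (midsection). Each species thus gave tip and midsection groups at sufficient and limiting phosphate, with 4 biological replicates of 30 to 40 pooled plants in each of the 8 groups.

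Libraries read the 3′ ends of transcripts, so counts were not divided by transcript length and are given as CPM, counts scaled to a common TMM-adjusted depth. M82 libraries held 1084652 to 34103546 counts and Pennellii libraries 6225 to 13124725. Replicate 3 of the limiting Pennellii tips and replicate 1 of the sufficient Pennellii midsections were identical for every ID, and both were left out. Pennellii reads had been mapped to M82, so levels were not compared between species. In segments of tissue, fewer cells that express a gene and less RNA per cell cannot be told apart.

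Most of the 10 members were barely detected in M82 roots. Only GA2ox4, GA2ox5 and DELLA passed the low-count filter there, with 3 of 10 members and 18275 genes in all tested. GA3ox2 and GA2ox1 had 0 counts in all 16 M82 libraries. The other 5 members summed to between 3 counts (GA2ox2) and 78 counts (GA3ox1) over the 16 libraries. A called gene below is one with an adjusted p under 0.05 in edgeR's quasi-likelihood test.

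The 2-oxidase GA2ox4 was abundant in M82 midsections and scarce in tips at sufficient phosphate. The 4 sufficient midsections stood at 46.1, 61.5, 97.7 and 75.2 CPM in replicates 1 to 4. The 4 sufficient tips stood at 0.641, 3.72, 0 and 0 CPM. Every midsection library thus lay above every tip library, a separation in this direction that 12.6% of all tested genes showed. The means were 70.1 ± 21.9 CPM (SD, n = 4) in midsections and 1.09 ± 1.78 CPM (SD, n = 4) in tips. The fitted tip-minus-midsection difference came to -5.40 ± 0.91 (log2, SE), with an edgeR adjusted p of 6.02e-05.

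How large the fold is depends on 1 deep library. Summed over libraries, GA2ox4 had 1635 counts in sufficient midsections and 121 in sufficient tips, and 118 of the 121 came from tip replicate 2, the deepest library. Summed counts set over summed depth gave a ratio of 20.2 (95% counting interval 16.8 to 24.5), and it was 157 without that library. The ratio of means was 64.3, or 328 without it. GA2ox4 was called in this comparison under all 17 alternative settings, with log2 differences from -7.49 to -5.13.

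GA2ox5, the second detected 2-oxidase, lies beside GA2ox4 with 0 annotated RefSeq genes between them, and it followed the same direction at a lower level. Sufficient midsections held 4.68, 2.66, 19.5 and 3.00 CPM in replicates 1 to 4. Sufficient tips held 0.427 CPM in replicate 1 and 0 in the others, which is 2 counts in all. Again no tip reached the level of any midsection. The ratio of summed counts was 80.1 (95% counting interval 21.6 to 670). It was 47.0 without tip replicate 1, with the remaining tips set at 3 counts in all, and 15.4 without tip replicate 2. The fitted log2 difference was -5.79, with an edgeR adjusted p of 0.0134. That p was 0.0558 without midsection replicate 3, which held the 19.5 CPM and is the shallowest M82 library, so the call rests on it.

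GA2ox4 and GA2ox5 shared reads in the deposited counts. Both were fractional in 5 M82 libraries, and in 5 of 5 the fractions added to a whole number within 0.0001. In limiting midsection replicate 1, for example, 369.120149 and 76.879851 counts added to 446. The split between the neighbours is therefore an estimate, and the level of GA2ox5 in particular is uncertain. GA2ox5 took 3.83% to 17.1% of the summed pair in the 4 sufficient midsections and 3.88% to 18.6% in the 4 limiting midsections, so these ranges overlapped. Summed as 1 gene, an alternative added after the data were seen, the pair differed between sufficient tips and midsections by -5.44 (log2), with an edgeR adjusted p of 4.37e-05.

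DELLA showed no detectable difference by position. Sufficient tips held 51.1, 95.01, 52.7 and 83.8 CPM, and sufficient midsections 55.2, 86.1, 88.4 and 84.6 CPM, in replicates 1 to 4. The groups overlapped over most of their range, and the fitted log2 difference of tip minus midsection was -0.15 ± 0.32 (SE), edgeR adjusted p 0.780. Of the 3 members tested at sufficient phosphate, 2 were called and both were lower in the tip, where 27.3% of all genes were called and 13.7% were called lower in the tip. GA2ox5 and GA2ox4 passed the filter through their midsection libraries, so this count says nothing about the members that were not tested. For the same reason the shared direction of the calls is no support.

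**Figure D1:**
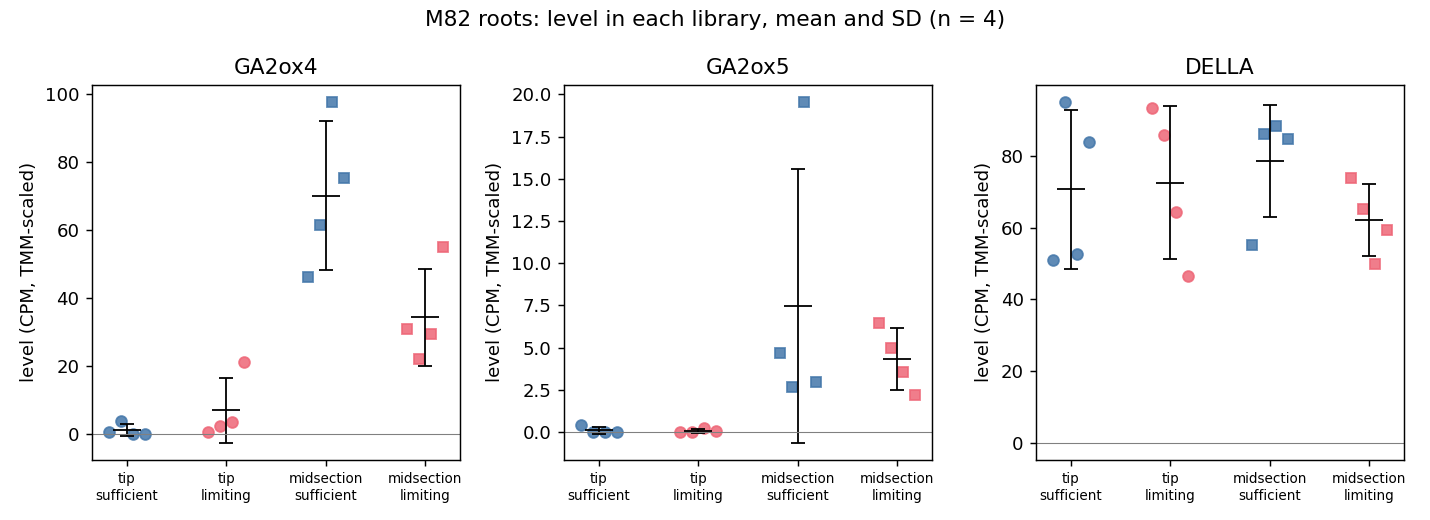
Level of GA2ox4, GA2ox5 and DELLA (CPM, linear axis from 0) in each M82 library, by position and phosphate; circles are tips, squares midsections, blue sufficient and red limiting, and the black bars give mean and SD of 4 libraries. GA2ox4 stood at 46.1 to 97.7 CPM in sufficient midsections and at 0 to 3.72 CPM in sufficient tips, whereas DELLA ranged from 46.5 to 95.01 CPM over all 16 libraries.

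At limiting phosphate GA2ox4 was again lower in every tip than in any midsection, but the difference was not called. Whether it differed from that at sufficient phosphate was tested as an interaction, which was not called either (edgeR adjusted p 0.211). Limiting tips stood at 0.594, 2.43, 3.50 and 21.1 CPM in replicates 1 to 4, and limiting midsections at 31.0, 21.9, 29.5 and 55.0 CPM. The groups did not overlap, as for 11.7% of all tested genes in this direction, but replicate 4 of the tips came within 1 CPM of the lowest midsection. The fitted log2 difference came to -2.27 ± 0.77 (SE), with an edgeR adjusted p of 0.0597, which misses the threshold. Without tip replicate 4 it was -3.98, with an edgeR adjusted p of 0.000595. With GA2ox4 and GA2ox5 summed it was -2.42 (edgeR adjusted p 0.0377). In all, 6 of 17 alternatives called GA2ox4 here. The ratio of means was 4.97, and 15.8 without tip replicate 4.

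GA2ox5 was the only member called between limiting tips and midsections, at 2 counts in 4 tips and 6.46, 5.01, 3.54 and 2.22 CPM in midsections. The ratio of summed counts was 55.3 (95% counting interval 15.1 to 461), or 91.0 without tip replicate 3, the log2 difference -5.46 and the edgeR adjusted p 0.0307. In all, 1 of 3 tested members was called here, and it was lower in the tip, where 10.4% of all genes were called and 4.27% were called lower in the tip. GA2ox5 passed the filter through its midsection libraries alone, so a call could only be lower in the tip and its direction is no support. The call for GA2ox5 ended without any 1 of the 4 tips or of midsection replicates 1, 2 and 3, with edgeR adjusted p from 0.0514 to 0.0848. The log2 difference in those fits lay between -6.20 and -5.17, about as large as with all libraries. DELLA differed by 0.22 ± 0.31 (log2, SE) between limiting tips and midsections, with an edgeR adjusted p of 0.790.

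No member was called for phosphate in M82. In tips, 0 of 3 tested members passed, where 1.42% of all genes did. GA2ox4 averaged 1.09 ± 1.78 CPM in sufficient and 6.91 ± 9.55 CPM in limiting tips (SD, n = 4 each). The groups overlapped. The ratio of means was 6.33, and 1.99 without limiting replicate 4. Its log2 change came to 2.10 ± 0.82 (SE), at an unadjusted p of 0.0167 and an edgeR adjusted p of 0.309. Without limiting replicate 4 the change was 0.42 (edgeR adjusted p 0.949), and without sufficient replicate 2 it was 4.19 (edgeR adjusted p 0.0517). DELLA stood at 93.4, 85.7, 64.2 and 46.5 CPM in the limiting tips, a log2 change of 0.03 ± 0.31 (SE) with an edgeR adjusted p of 0.989.

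The library with the high GA2ox4 value also held more RNA of other midsection genes. The 2494 other genes called lower in sufficient tips than in sufficient midsections took 10.5% to 13.2% of the scaled counts in sufficient tips and 34.1% to 39.2% in sufficient midsections. The sufficient libraries were used to choose these genes, so their shares lie apart by the choice itself. In limiting tips the 2494 genes took 17.1%, 16.1%, 16.3% and 18.5% in replicates 1 to 4. Replicate 4 was thus the highest of the limiting tips, close to the others, while its GA2ox4 level stood far above theirs. Counted against DELLA in the same library, which needs no scaling between libraries, GA2ox4 stood at 0.454 counts per DELLA count in that tip. The other limiting tips stood at 0.00636 to 0.0545, and limiting midsections at 0.336 to 0.928. DELLA itself was lowest of the 16 M82 libraries in limiting tip replicate 4, which raises the ratio there. It stood at 46.5 CPM, against 64.2 to 93.4 CPM in the other limiting tips. The part of segment make-up in these values was not tested.

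**Figure D2:**
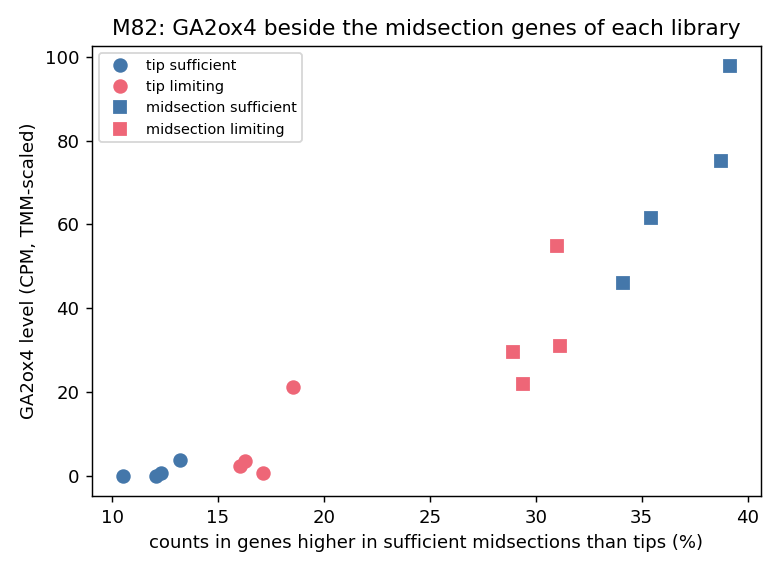
GA2ox4 level (CPM) in each M82 library against the percentage of scaled counts in 2494 other genes called higher in sufficient midsections than in sufficient tips. Limiting tip replicate 4, at 18.5% and 21.1 CPM, lies next to the other limiting tips on the horizontal axis and above them on the vertical axis; the sufficient libraries were used to choose the genes of the horizontal axis.

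In midsections, 0 of 3 tested members were called for phosphate, where 1.43% of all genes were. GA2ox4 averaged 70.1 ± 21.9 CPM at sufficient and 34.3 ± 14.3 CPM at limiting phosphate (SD, n = 4 each). Limiting replicate 4, at 55.0 CPM, lay above sufficient replicate 1, at 46.1 CPM, and the other 3 limiting libraries lay below all sufficient ones. The 2494 midsection genes took 28.9% to 31.2% of scaled counts in limiting midsections and 34.1% to 39.2% in sufficient ones. They were chosen as high in these same sufficient midsections, so a lower share elsewhere is expected from the choice alone. Their part in the GA2ox4 values was not tested. The log2 change of GA2ox4 came to -1.03 ± 0.74 (SE), and the edgeR adjusted p of 0.703 ranged from 0.116 to 0.903 over 17 alternatives. GA2ox5 averaged 7.47 ± 8.10 CPM and 4.31 ± 1.83 CPM (SD, n = 4 each), a log2 change of -0.75 with an edgeR adjusted p of 0.920. DELLA averaged 78.6 ± 15.7 CPM and 62.0 ± 10.1 CPM (SD, n = 4 each), a log2 change of -0.34 ± 0.31 (SE) with an edgeR adjusted p of 0.806.

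Whether the response to phosphate differed between positions was tested directly as an interaction. It called 0 of 3 tested members and 0.969% of all genes. For GA2ox4 the tip response exceeded the midsection response by 3.13 ± 1.10 (log2, SE), with an unadjusted p of 0.00875 and an edgeR adjusted p of 0.211. It was 1.47 (edgeR adjusted p 0.660) without limiting tip replicate 4 and 5.22 (edgeR adjusted p 0.0361) without sufficient tip replicate 2, the only 1 of 24 alternatives that called it. For DELLA the interaction came to 0.37 ± 0.44 (log2, SE), with an edgeR adjusted p of 0.830.

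The order of group means for GA2ox4 was sufficient midsection, limiting midsection, limiting tip and sufficient tip, and neighbours in that order were not called different. For DELLA the group means ran from 62.0 to 78.6 CPM, and no pair of groups that was compared was called different.

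The synthesis genes gave too few counts in M82 for a test, and their values are counting results of these libraries. GA3ox1, which makes the active hormone, had 70 of its 78 counts in sufficient tip replicate 2 and 2 more in sufficient tip replicate 3. Limiting tips held 1 count, sufficient midsections 1 and limiting midsections 4. In CPM, replicate 2 of the sufficient tips stood at 2.21 and replicate 3 at 1.27. Summed over depth, sufficient tips stood at 1.84 CPM (95% counting interval 1.44 to 2.31) and limiting tips at 0.0415 CPM (0.00105 to 0.231). The ratio was 44.3 (95% counting interval 7.70 to 1772.5). Without sufficient replicate 2 it was 6.40, on 2 counts against 1. Without limiting replicate 4 it was 8.73, with the remaining limiting tips set at 3 counts in all. With no low-count filter, GA3ox1 was not called between these groups (edgeR adjusted p 0.486).

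Among the 20-oxidases, GA20ox2 and GA20ox3 were seen almost entirely in limiting midsections. GA20ox2 had 0, 9, 6 and 2 counts in limiting midsection replicates 1 to 4, 2 counts in sufficient midsections and 0 in all 8 tips. Its ratio of limiting to sufficient midsections was 6.01 (95% counting interval 1.43 to 53.6). The ratio was 8.86 without limiting replicate 1 and 3.56 without limiting replicate 2. Without sufficient replicate 2 it was 2.63, with the remaining sufficient midsections set at 3 counts in all. GA20ox3 had 0, 0, 20 and 11 counts in limiting midsections, 0 in sufficient midsections, 0 in sufficient tips and 1 in limiting tips. With the 4 sufficient midsections set at a floor of 3 counts in all, its ratio of summed counts was 7.31. This ratio dropped to 3.86 when limiting replicate 3 was left out and to 4.79 when sufficient replicate 2 was. It pools the reads of a group and leaves out the spread between libraries, so it is no lower bound on a difference between groups. Each group overlapped its counterpart at 0 counts. With no low-count filter neither was called for phosphate in midsections, with edgeR adjusted p of 0.672 for GA20ox2 and 0.348 for GA20ox3.

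GA20ox1 was seen in 1 M82 library only, with 6 counts in sufficient tip replicate 3. The 2-oxidase GA2ox2 had 1 count in each of 3 M82 libraries. For GA3ox2 and GA2ox1, 0 counts in the deepest group, the sufficient tips, allow a level of up to 0.0765 CPM (3 counts over the group). In the shallowest group, the limiting tips, they allow up to 0.124 CPM. Most of the depth of the sufficient tips lies in replicate 2. In replicates 1, 3 and 4 of that group, 3 counts are worth 0.641, 1.91 and 2.35 CPM. These limits and the intervals above cover counting error at most. They treat reads as independent molecules, which they are not, and leave out the spread between libraries.

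**Figure D3:**
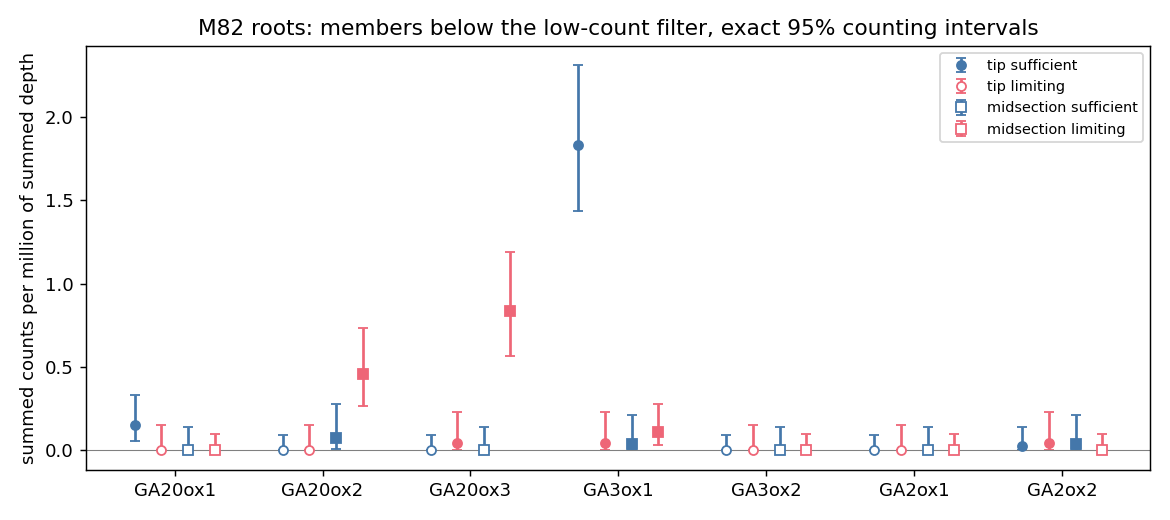
Summed CPM in the 4 M82 groups for the 7 members below the low-count filter, with exact 95% counting intervals (4 libraries a group); open symbols mark groups with 0 counts. GA3ox1 stood at 1.84 in sufficient tips and GA20ox3 at 0.837 in limiting midsections; intervals cover counting error, not the spread between libraries.

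Over the 16 M82 libraries, GA2ox4 and GA2ox5 varied together (Pearson r of log2(CPM + 1) 0.82), while DELLA followed neither (r of -0.02 with GA2ox4 and 0.04 with GA2ox5). The first pair shares reads, and all libraries share the contrast of tip and midsection. Among the other tested genes, the one most like GA2ox4 was Solyc12g008980.2.1 (r = 0.97, n = 16), with mean levels of 1.29, 3.42, 67.3 and 20.5 CPM in sufficient tips, limiting tips, sufficient midsections and limiting midsections. The gene most like GA2ox5 was Solyc10g039270.2.1 (r = 0.96) and that most like DELLA was Solyc11g007690.2.1 (r = 0.83). They were the best of 18275 genes searched, and the sources used here give no names for them.

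In Pennellii, only DELLA passed the filter, 1 of 10 members, and 13450 genes were tested. It was called in none of the 4 comparisons. The shares of all genes called were 0.684% for phosphate in tips, 0.119% for phosphate in midsections, 0.238% for position at sufficient and 0.32% for position at limiting phosphate. DELLA stood at 55.8 and 49.8 CPM in sufficient tip replicates 1 and 3, and at 30.5, 0.663 and 87.4 CPM in limiting tip replicates 1, 2 and 4. Sufficient midsection replicates 2, 3 and 4 stood at 0, 71.3 and 40.1 CPM, and limiting midsection replicates 1 and 4 at 106 and 94.4 CPM. It had 0 counts in the 4 shallowest libraries of the fit, where 3 counts are worth 21.1 to 180 CPM. In limiting midsection replicates 2 and 3 that value was 21.1 and 78.3 CPM, below the levels of replicates 1 and 4.

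A deeper library also held a low DELLA value. The limiting tip replicate 2 had 1 DELLA count among 1529463, and sufficient midsection replicate 2 had 0 among 464792, where 3 counts are worth 7.03 CPM. Both lay below the other libraries of their group, which stood at 30.5 CPM or more. The fitted log2 changes of DELLA, from -0.47 to 0.53, had standard errors of 1.41 to 1.43, so changes of 4-fold in either direction lie within 2 standard errors.

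The 20-oxidase GA20ox1 gave more counts in Pennellii than any other synthesis gene. Sufficient midsection replicates 2, 3 and 4 held 34, 48 and 15 counts, or 79.7, 3.62 and 2.32 CPM. Limiting midsections held 1, 0, 0 and 3 counts in replicates 1 to 4, and all 7 tips held 0. The highest limiting midsection stood at 2.00 CPM. The ratio of summed counts was 6.18 (95% counting interval 2.34 to 23.2), 4.10 without sufficient replicate 2, and 3.28 without limiting replicate 4, where 1 count remained in the limiting group. In limiting replicates 2 and 3, 3 counts are worth 21.1 and 78.3 CPM, so their 0 counts do not show a level below those of sufficient replicates 3 and 4. With no low-count filter the change was not called (edgeR adjusted p 0.644).

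The position difference of GA20ox1 at sufficient phosphate was the only one called between species. That fit of both species tested 4 members (GA20ox1, GA2ox4, GA2ox5 and DELLA) among 19460 genes. GA20ox1 passed the low-count filter in neither species alone and entered this fit through the Pennellii sufficient midsections, where it is high, so its count among the called is no support. The fit called 1 of the 4 members for position at sufficient phosphate, lower in Pennellii than in M82 as a tip-minus-midsection difference, where 1.98% of all genes were called. Pennellii had 97 counts in midsections and 0 in tips. With the 4 tips set at 3 counts in all, the ratio of summed counts of midsections to tips was 3.54. This ratio was 2.11 without tip replicate 1, 1.51 without tip replicate 3 and 2.35 without midsection replicate 2. It leaves out the spread between libraries, so it is no lower bound on a difference between groups. M82 had 0 counts in midsections and 6 in tips. The fitted interaction of -15.35 (log2) depends on the prior count and is no measure of size, and its edgeR adjusted p was 0.0393. The call ended without M82 tip replicate 3, which held the 6 counts (edgeR adjusted p 1.00), and under 13 of 24 alternatives in all. These were DESeq2 and limma-voom (adjusted p 0.750 each), the fit of deeper libraries, the replicate block and 9 fits that left out 1 sufficient library: M82 tip 3, M82 midsections 1 to 4, Pennellii tips 1 to 3 and Pennellii midsection 2. The median of this difference over all genes was -0.74 (log2).

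Differences between species in the phosphate response were called for 0 of the 4 members in tips and in midsections, where 1.24% and 0.0411% of all genes were called. GA2ox4 in Pennellii held 1 count in sufficient tips, 5 in limiting tips, 37 in sufficient midsections and 11 in limiting midsections. Its summed level at sufficient phosphate was 1.84 CPM in midsections and 0.453 CPM in tips, a ratio of 4.05 (95% counting interval 0.684 to 164) that includes no difference and rests on 1 tip count. It was 1.73 without tip replicate 3, and no count remained in tips without tip replicate 1. Its position difference between species was 3.68 ± 2.55 (log2, SE; edgeR adjusted p 0.448). DESeq2 called it (6.18, adjusted p 0.0138), as did limma-voom (6.51, adjusted p 0.0374), which also called GA2ox5 (7.86, adjusted p 0.0354). Of the remaining members, GA3ox1 had 69 of 79 counts in sufficient midsection replicate 3, and GA2ox2 had 31 of 52 in limiting tip replicate 2. GA20ox3 had 12 counts in sufficient midsection replicate 4 and 6 in limiting midsection replicate 4, GA2ox5 had 6 and GA20ox2 1 in sufficient midsection replicate 3, and GA3ox2 and GA2ox1 had 0 in all 14 libraries.

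**Figure D4:**
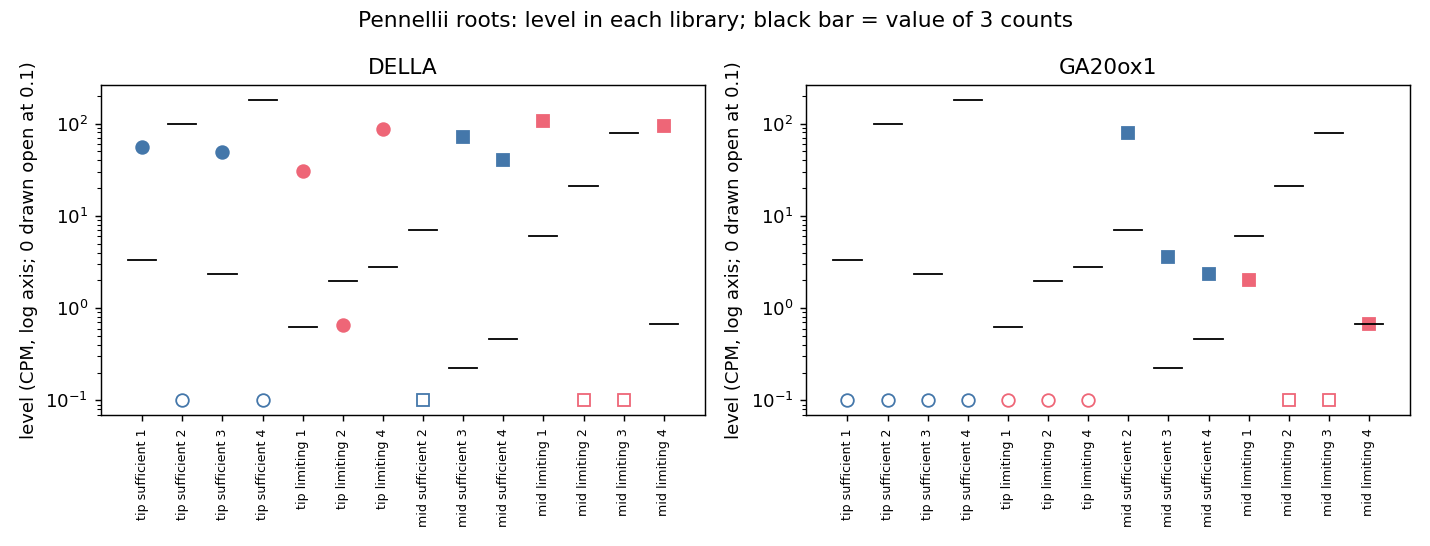
Level of DELLA and GA20ox1 (CPM, log axis) in each of 14 Pennellii libraries; black bars mark the level that 3 counts are worth in that library, and open symbols at the bottom mark 0 counts. DELLA stood at 30.5 to 106 CPM in 8 libraries and at 0.663 CPM or 0 in the others, and GA20ox1 reached 79.7 CPM in sufficient midsection replicate 2, where DELLA had 0 counts.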

How the data were processed

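Per the labels' protocols, total RNA was made into strand-specific 3′ libraries (BrAD-seq) and sequenced as single reads of 50 bases. The submitters' processing notes name Bowtie 1.2.2, FastQC, limma and edgeR. Which program counted the reads, on which build and annotation, is not given in the sources used here. Values as deposited by the authors are estimated counts, 1 row for each gene model, with fractions in some rows, and 0 columns were left unused. The 10 members, the lists and the tests were chosen with earlier results of these data known. Names of members were set beside RefSeq assembly SLM_r2.1, which holds no ID of the tables. Position was not checked by marker genes, and other pathway genes were not used, because no source pairs their names with IDs.

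Estimated counts were rounded, libraries scaled by TMM, and genes kept by filterByExpr (minimum count 10, minimum total 15). Tests used edgeR 4.0.16 (quasi-likelihood, robust) in R 4.3.3, 1 fit for each species and 1 for both, with Benjamini-Hochberg adjustment over all genes of a fit and a threshold of 0.05. Standard errors are the size of the log2 change over the square root of F. Ratios of summed counts carry exact 95% intervals for counting error. Ratios with a group set at 3 counts carry no interval and leave out the spread between libraries. They are no lower bounds on a difference between groups. The 2 identical Pennellii columns were left out, which left 30 libraries. The test was run on simulated data for phosphate in tips and for position at sufficient phosphate within each species, not for the other comparisons. The outcome is not given here. All 10 members are reported. Alternatives were RLE scaling, DESeq2 1.42.0, limma-voom (limma 3.58.1), other filters, unrounded counts, a replicate block, fits of the compared groups alone, libraries left out, only Pennellii libraries of at least 100000 counts, and both identical columns kept. Figures used matplotlib 3.10.9.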

Additional observations from a re-analysis of the deposited data

Results flagged for a closer look

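Among members that passed the low-count filter, 14 groups of 4 libraries were examined for a library that stands apart. The measure was its gap to the nearest library as a share of the group's range (above 0.829). Chance gives about 1 such group in 20 only for normally distributed values, a rate that need not hold for low counts. GA2ox4 in limiting M82 tips had replicate 4 apart, at 21.1 CPM. GA2ox5 in sufficient M82 tips had replicate 1 apart, at 0.427 CPM, which is 2 counts beside libraries with 0. There any value above 0 would have been flagged. GA2ox5 in sufficient M82 midsections had replicate 3 apart, at 19.5 CPM, in the shallowest M82 library. DELLA in sufficient M82 midsections had replicate 1 apart, at 55.2 CPM, below the others.

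GA20ox1 was called between species for its position difference at sufficient phosphate. The tested interaction of -15.35 (log2) is no measure of size, and only 11 of 24 alternatives called it. Its M82 side rests on 6 counts in 1 tip library.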

How the results depend on the processing

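The counts of members called at an edgeR adjusted p under 0.05 changed in 4 of the 12 comparisons. Between sufficient M82 tips and midsections 2 members were called, against 1 with a filter of 5 CPM in 4 libraries or with GA2ox4 and GA2ox5 summed, both of which leave GA2ox5 out, and 1 to 2 with a library left out. Between limiting M82 tips and midsections 1 was called, against 2 with DESeq2, limma-voom, the replicate block and the compared groups alone, 0 with the 5 CPM filter, and 0 to 1 with a library left out. For the M82 interaction 0 were called, or 0 to 1 with a library left out. For the position difference between species 1 was called, against 2 with limma-voom, 0 with the 5 CPM filter, the replicate block or only libraries of at least 100000 counts, and 0 to 1 with a library left out. No called member changed sign.

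Replicate numbers were not taken to pair the libraries, since not every same-numbered pair had deviations correlated above 0.1. This rule cannot exclude a weaker pairing. In M82 the 24 same-numbered pairs lay at -0.02 to 0.08 (median 0.020), and 0 were above 0.1. The 72 differently numbered M82 pairs lay at -0.05 to 0.05 (median -0.006). In Pennellii the 18 same-numbered pairs lay at -0.06 to 0.21 with 3 above 0.1, against 1 of 55 differently numbered pairs. The replicate block moved the 2 counts given above: GA2ox4 between limiting tips and midsections was -2.85 (edgeR adjusted p 0.0161), and GA20ox1 between species had an edgeR adjusted p of 0.0837. Scaling by RLE or plain totals moved no M82 group mean of GA2ox4, GA2ox5 or DELLA by more than 1 SD. This is a loose check where the SD exceeds the mean, as for GA2ox4 in sufficient tips (1.09 ± 1.78 CPM) and limiting tips (6.91 ± 9.55 CPM). Members at 0 counts are limited by depth: 3 counts over a group are worth 1.36 CPM in sufficient Pennellii tips, 0.584 in limiting midsections and 0.403 in limiting tips.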
